A study of Homo sapiens with 6 samples.

Results

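Protein phosphatase 2A (PP2A) subunit transcripts were followed through the RNA-Seq libraries of SAS-Fucci cells, a line from a human tongue squamous cell carcinoma that carries a fluorescent cell-cycle reporter. The 9 subunit genes were taken by name from a table of 66351 gene models, of which 59520 carry a name. The family was picked because PPP2R1B is much lower after IGFBP3 knockdown, that is, the family was chosen by the FPKM of PPP2R1B in the same comparisons, and so the PPP2R1B values are given as a description with no test. The 6 libraries fall into 3 groups of 2, namely cells at 48 h after IGFBP3 siRNA #1, cells at 72 h after the same siRNA, and cells given a non-targeted control siRNA. All 6 came from the same reporter line, and the knockdown groups rest on 1 siRNA sequence. The medium of the 72 h cells was changed at 48 h. The labels give no harvest time for the control cells and no word on whether replicate libraries were grown as separate cultures, so that p-values measure only the spread between these libraries, which may be technical.

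PP2A is a serine/threonine phosphatase built from 3 kinds of subunit. A scaffold subunit, PPP2R1A or PPP2R1B, holds a catalytic subunit, PPP2CA or PPP2CB, and a regulatory subunit that chooses the substrate and the place in the cell. Among the regulatory families, B55 (here PPP2R2A) is known for reversing CDK phosphorylation at the end of mitosis, and B56 (here PPP2R5A, PPP2R5C, PPP2R5D and PPP2R5E) for work at centromeres and on signaling proteins. PP2A as a whole is known to remove phosphates from AKT and from members of the ERK cascade, and loss of subunit function, PPP2R1B included, has been described in human tumors.

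The 2 scaffold genes lie apart in the genome. PPP2R1B (ENSG00000137713) lies on the minus strand of chromosome 11 of GRCh38 from 111726908 to 111766389, and PPP2R1A (ENSG00000105568) on the plus strand of chromosome 19 from 52190048 to 52229518. In the principal coding sequences of GENCODE release 29, 1307 of 1770 aligned bases were the same (73.8%), and the longest identical run was 17 bases. No window of 50 bases was shared between any of their annotated coding transcripts (0 of 6263 windows of PPP2R1B), so that a read of that length matching both exactly is not expected. The coding stretch around the longest identical run is shown to let the paralogs be compared letter by letter. It is 60 bases long, crosses the junction of exons 2 and 3 in both genes, and spans chr11:111764904-111765351 and chr19:52201977-52205964 with the intron left out. Capitals mark the 12 positions at which the paralogs differ.
PPP2R1B: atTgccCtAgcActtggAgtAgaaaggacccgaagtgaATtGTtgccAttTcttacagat
PPP2R1A: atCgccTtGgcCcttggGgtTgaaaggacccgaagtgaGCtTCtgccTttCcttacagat

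The 250 bases before the annotated starts are shown for the same pair, since PPP2R1B was lower after knockdown and PPP2R1A did not pass the test. They are from RefSeq on GRCh38.p14, at chr11:111766390-111766639 on the minus strand and chr19:52189802-52190051 on the plus strand. Capitals mark CCAAT and GGGCGG, the letters of a CCAAT box and a GC box, searched on both strands. The PPP2R1B stretch held no CCAAT and 2 GGGCGG, and that of PPP2R1A held 2 of each. Of 35116 promoter stretches of this length, 32.0% held CCAAT and 42.6% held GGGCGG. A match is a description of the letters only.
PPP2R1B: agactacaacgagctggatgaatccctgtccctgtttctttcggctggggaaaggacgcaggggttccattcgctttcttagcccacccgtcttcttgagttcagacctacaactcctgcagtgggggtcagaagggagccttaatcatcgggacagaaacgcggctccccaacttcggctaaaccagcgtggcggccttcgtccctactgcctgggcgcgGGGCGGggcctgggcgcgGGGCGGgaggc
PPP2R1A: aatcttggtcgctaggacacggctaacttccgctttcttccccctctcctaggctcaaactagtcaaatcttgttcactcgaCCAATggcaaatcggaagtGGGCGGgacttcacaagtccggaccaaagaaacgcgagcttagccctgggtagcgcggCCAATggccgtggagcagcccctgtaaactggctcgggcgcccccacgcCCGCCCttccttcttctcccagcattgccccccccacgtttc

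The knockdown and the identity of the cells were checked first. IGFBP3 stood at 0.261 and 0.258 FPKM at 48 h, 1.52 and 3.25 FPKM at 72 h, and 24.7 and 23.1 FPKM in control libraries, where FPKM is the assigned reads scaled by model length and library total. The libraries held 17430804 to 21579586 assigned reads, as read back from the steps of low FPKM values. The 9 epithelial markers were KRT5, KRT14, KRT6A, KRT17, TP63, SFN, DSP, EPCAM and CDH1. All 9 reached 1 FPKM at 72 h and in control libraries and 8 of 9 at 48 h, where KRT14 was at 0.554 and 0.610 FPKM. Of 3 leukocyte markers 2 were listed at 0 in every library, although PPM1B, a widely expressed phosphatase gene, was also listed at 0, and the summed fibroblast markers did not exceed 1.71 FPKM. The summed epithelial markers were 502 to 544 FPKM at 48 h, 802 to 815 FPKM at 72 h and 887 to 1032 FPKM in control libraries. At a limma adjusted p under 0.05, 6 of 9 were lower at 48 h and 1 at 72 h. The shares of all 11214 tested genes were 16.5% and 9.51%. The summed fibroblast markers were also lower in knockdown libraries (0.774 to 1.15 FPKM) than in controls (1.66 to 1.71 FPKM). The part of these differences in the results for the subunits was not tested.

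PPP2R1B, the beta form of the scaffold, was the gene the family was chosen for, and its log2 change was the lowest of the 8 members that passed the filter at both times. It stood at 2.78 and 3.07 FPKM at 48 h, 3.02 and 3.48 FPKM at 72 h, and 7.29 and 7.44 FPKM in control libraries. All 4 knockdown libraries lay below both controls, and the times overlapped each other. These levels rest on 328 and 418 reads at 48 h, 417 and 502 reads at 72 h, and 962 and 867 reads in control libraries. The 48 h mean was 39.8% and the 72 h mean 44.2% of the control mean. On the scale of log2(FPKM + 1), which draws the changes of low genes toward 0, the difference was -1.09 at 48 h and -0.98 at 72 h (standard error 0.08 for each). It was among the 1.11% lowest log2 changes of tested genes at 48 h and the 0.82% lowest at 72 h. These ranks restate the reason for its choice. The PPP2R1B model overlaps that of SIK2 on the opposite strand, which was at 2.31 to 2.99 FPKM, and how strands were handled in counting is not given in the sources used here.

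PPP2R1A, the alpha form that makes up most scaffold RNA in these cells, did not pass the test. It stood at 22.3 and 23.8 FPKM at 48 h, 25.5 and 26.3 FPKM at 72 h, and 23.2 and 23.8 FPKM in control libraries. The 48 h libraries overlapped the controls and the 72 h libraries lay above them. The log2 change was -0.03 at 48 h (95% interval -0.19 to 0.13, limma adjusted p = 0.771) and 0.13 at 72 h (95% interval -0.03 to 0.30, limma adjusted p = 0.246).

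Set side by side on the FPKM scale, which is per length, PPP2R1B made up 11.3% ± 0.223 of scaffold FPKM at 48 h, 11.1% ± 0.780 at 72 h and 23.8% ± 0.0735 in control libraries (SD, n = 2 each). The share was 11.1% and 11.4% at 48 h, 10.6% and 11.7% at 72 h, and 23.9% and 23.8% in control libraries. PPP2R1A was 7.99 and 7.75 times as high as PPP2R1B at 48 h, 8.45 and 7.55 times at 72 h, and 3.19 and 3.21 times in control libraries. The sum of both genes was 25.0 and 26.9 FPKM at 48 h, 28.6 and 29.8 FPKM at 72 h, and 30.5 and 31.3 FPKM in control libraries, or 84.0% of the control mean at 48 h and 94.4% at 72 h. The sum therefore differed less than PPP2R1B alone, as PPP2R1A supplied most of it in every library. Since PPP2R1B was chosen for its fall, the share was not tested.

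**Figure D1:**
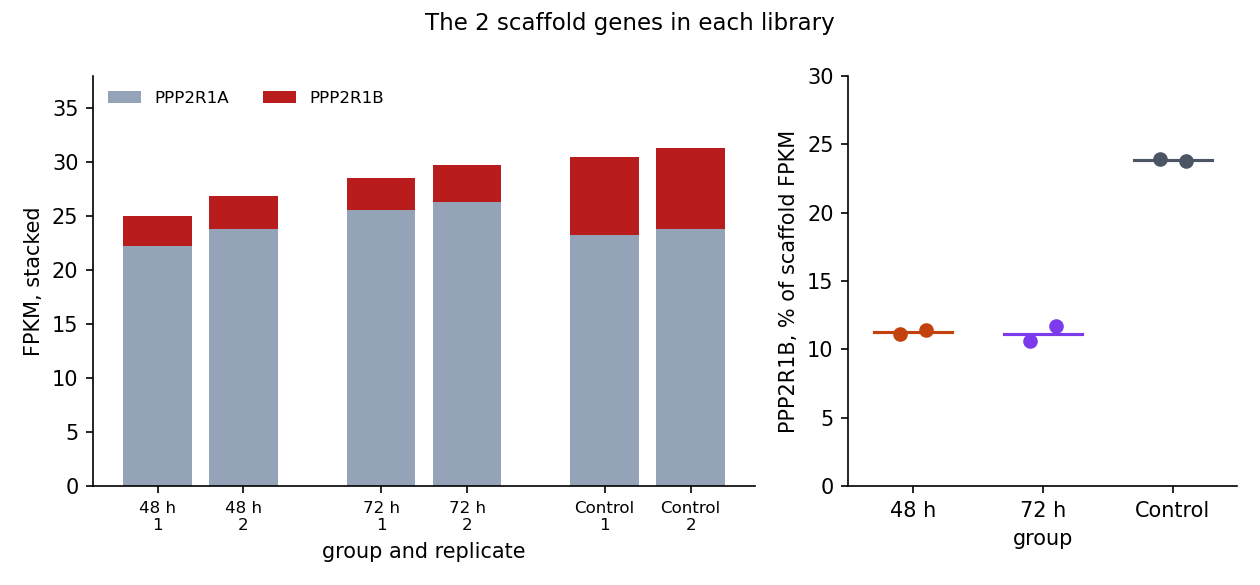
PPP2R1A and PPP2R1B in each library. The left panel stacks their FPKM (y axis) by group and replicate, and the right panel gives PPP2R1B as a percentage of the sum, with points for libraries and lines for group means. The 4 knockdown libraries sit between 10.6% and 11.7%, against 23.8% and 23.9% in the control libraries.

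Of the 9 members, 8 passed the filter of at least 1 FPKM in at least 2 libraries. At 48 h, PPP2R1B aside, 3 of the other 7 were lower at an adjusted p under 0.05 and none was higher, beside 16.5% of all 11214 tested genes called lower and 8.38% called higher. With an unadjusted p under 0.05, 4 were lower and 0 higher. All libraries of the knockdown group lay below both controls in 4 of these 7 at 48 h and above them in 0, beside 38.7% and 27.3% of all tested genes. At 72 h the same counts were 3 lower and 0 higher, beside 9.51% and 3.56% of all tested genes, and 3 lower and 0 higher at an unadjusted p under 0.05. At 72 h they lay below both controls in 3 of the 7 and above them in 3, beside 37.2% and 21.2% of all tested genes. The genes that passed as lower at both times were PPP2R2A, PPP2R5A and PPP2R5E. The median log2 change over the 7 members without PPP2R1B was -0.20 at 48 h and -0.05 at 72 h, beside -0.04 and -0.05 over all tested genes. Without replicate 1 of the 72 h group, 1 of the 7 was lower at 72 h in place of 3, and 2 were without any 1 of the other libraries. Both comparisons use the same control libraries. The members were chosen with earlier results of these data known, so these counts do not come from an unselected set.

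**Figure D2:**
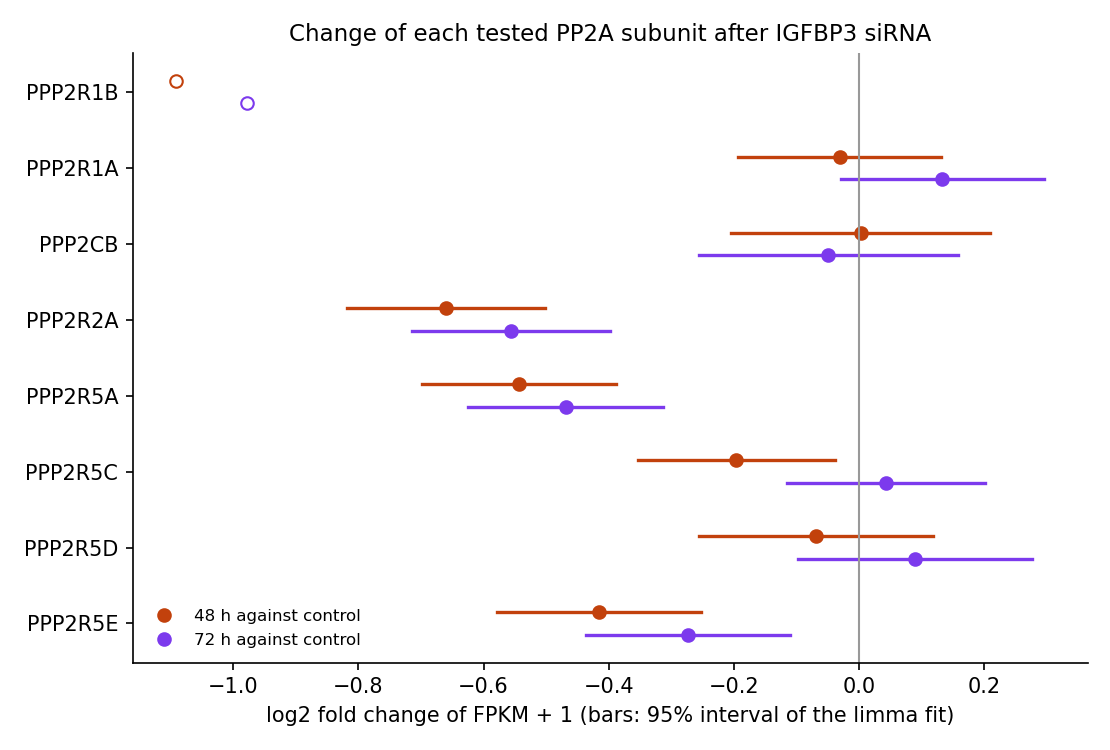
Log2 fold change of FPKM + 1 (x axis) of the 8 tested subunits (y axis) at 48 h and at 72 h against control. Points are limma estimates and bars their 95% intervals, and PPP2R1B is drawn open and without bars because it was chosen for its fall. PPP2R2A, PPP2R5A and PPP2R5E lie left of 0 at both times, from -0.66 to -0.27.

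The catalytic genes could be described only in part. PPP2CB, the beta catalytic subunit, stood at 12.6 and 14.1 FPKM at 48 h, 13.4 and 12.2 FPKM at 72 h, and 12.8 and 13.8 FPKM in control libraries. The libraries of the 3 groups overlapped, and the log2 change was 0.00 at 48 h (95% interval -0.20 to 0.21, limma adjusted p = 0.988) and -0.05 at 72 h (95% interval -0.26 to 0.16, limma adjusted p = 0.750). PPP2CA, the alpha catalytic subunit, was listed at 0.061 and 0.070 FPKM at 48 h, 0.026 and 0.033 FPKM at 72 h, and 0.036 and 0.021 FPKM in control libraries. That is 6 and 8 reads at 48 h, 3 and 4 reads at 72 h, and 4 and 2 reads in control libraries, and it did not pass the filter.

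Whether this near-zero level means absence of PPP2CA RNA cannot be told from these values. At least 99% of the PPP2CA model (chromosome 5 from 134194332 to 134226073, minus strand) lies inside the span of another model on the same strand, AC104109.3, which runs from 134167170 to 134226071, has a length of 483 bases in the table against 5594 for PPP2CA, and was itself at 0.105 FPKM or less. Of the 959 protein-coding models that lie at least 99% inside another model on their strand, 66.6% were under 0.1 FPKM in every library, against 34.8% of the 18929 other protein-coding models. PPP2CA is itself among the 959, and the sets were not matched in any other way. SDHA, a subunit of respiratory complex II that cells in general express, was listed at 0.079 to 0.171 FPKM although no overlapping model was looked up for it. Whether the overlap bears on the PPP2CA value was not tested. This comparison of models was made after the PPP2CA values had been seen. The share of PPP2CB in catalytic FPKM (99.5% ± 0.00839 at 48 h, 99.8% ± 0.0535 at 72 h and 99.8% ± 0.0915 in control libraries; SD, n = 2 each) inherits this limit and says nothing of the balance between the catalytic forms. The paralogs share 83.2% of 930 aligned coding bases and no window of 50 bases.

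PPP2R2A (ENSG00000221914), the B55 alpha regulatory subunit known for dephosphorylating CDK substrates as cells leave mitosis, fell at both times. It stood at 7.18 and 7.51 FPKM at 48 h, 7.76 and 8.17 FPKM at 72 h, and 12.2 and 12.1 FPKM in control libraries. Every knockdown library lay below both controls, with means at 60.3% of control at 48 h and 65.4% at 72 h. The log2 change was -0.66 at 48 h (standard error 0.07, limma adjusted p = 0.0022) and -0.56 at 72 h (standard error 0.07, limma adjusted p = 0.0062). Both calls held in each of 17 alternative fits.

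PPP2R5A (ENSG00000066027), B56 alpha, a regulatory subunit known for targeting MYC, fell as well. It stood at 6.52 and 6.20 FPKM at 48 h, 6.71 and 6.78 FPKM at 72 h, and 9.63 and 9.82 FPKM in control libraries. Here too all knockdown libraries lay below both controls, at 65.4% of the control mean at 48 h and 69.4% at 72 h. The log2 change was -0.54 at 48 h (standard error 0.07, limma adjusted p = 0.0033) and -0.47 at 72 h (standard error 0.07, limma adjusted p = 0.0088). The 72 h call was lost without replicate 1 of the 72 h group (limma adjusted p = 0.0541).

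PPP2R5E (ENSG00000154001), B56 epsilon, fell less. It stood at 8.14 and 8.10 FPKM at 48 h, 8.70 and 9.44 FPKM at 72 h, and 11.2 and 11.1 FPKM in control libraries. The libraries of the groups did not overlap, and the means were 72.7% of control at 48 h and 81.2% at 72 h. The log2 change was -0.42 at 48 h (standard error 0.07, limma adjusted p = 0.0085) and -0.27 at 72 h (standard error 0.07, limma adjusted p = 0.0464). The 48 h call was lost without replicate 2 of the 48 h group (limma adjusted p = 0.0518), and the 72 h call was lost in 12 of 17 alternative fits, among them every fit that left out a library (limma adjusted p = 0.0239 to 0.198 over the alternatives).

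PPP2R5C and PPP2R5D, the gamma and delta forms of B56, did not pass the test against control. PPP2R5C, a form known for binding p53, stood at 7.03 and 6.81 FPKM at 48 h, 8.33 and 8.37 FPKM at 72 h, and 7.85 and 8.30 FPKM in control libraries. Both 48 h libraries lay below the controls and both 72 h libraries above them, with log2 changes of -0.20 at 48 h (limma adjusted p = 0.0726) and 0.04 at 72 h (limma adjusted p = 0.708). Fitted with voom on the recovered reads, the 48 h difference passed (adjusted p = 0.0472). PPP2R5D, a form known from a developmental disorder of the brain, stood at 25.2 and 28.1 FPKM at 48 h, 29.3 and 30.4 FPKM at 72 h, and 27.2 and 28.8 FPKM in control libraries. Its 48 h libraries overlapped the controls and its 72 h libraries lay above them. The log2 change was -0.07 at 48 h (95% interval -0.26 to 0.12, limma adjusted p = 0.557) and 0.09 at 72 h (95% interval -0.10 to 0.28, limma adjusted p = 0.497). The PPP2R5D model overlaps that of MEA1 on the opposite strand, which was at 42.5 to 50.8 FPKM.

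**Figure D3:**
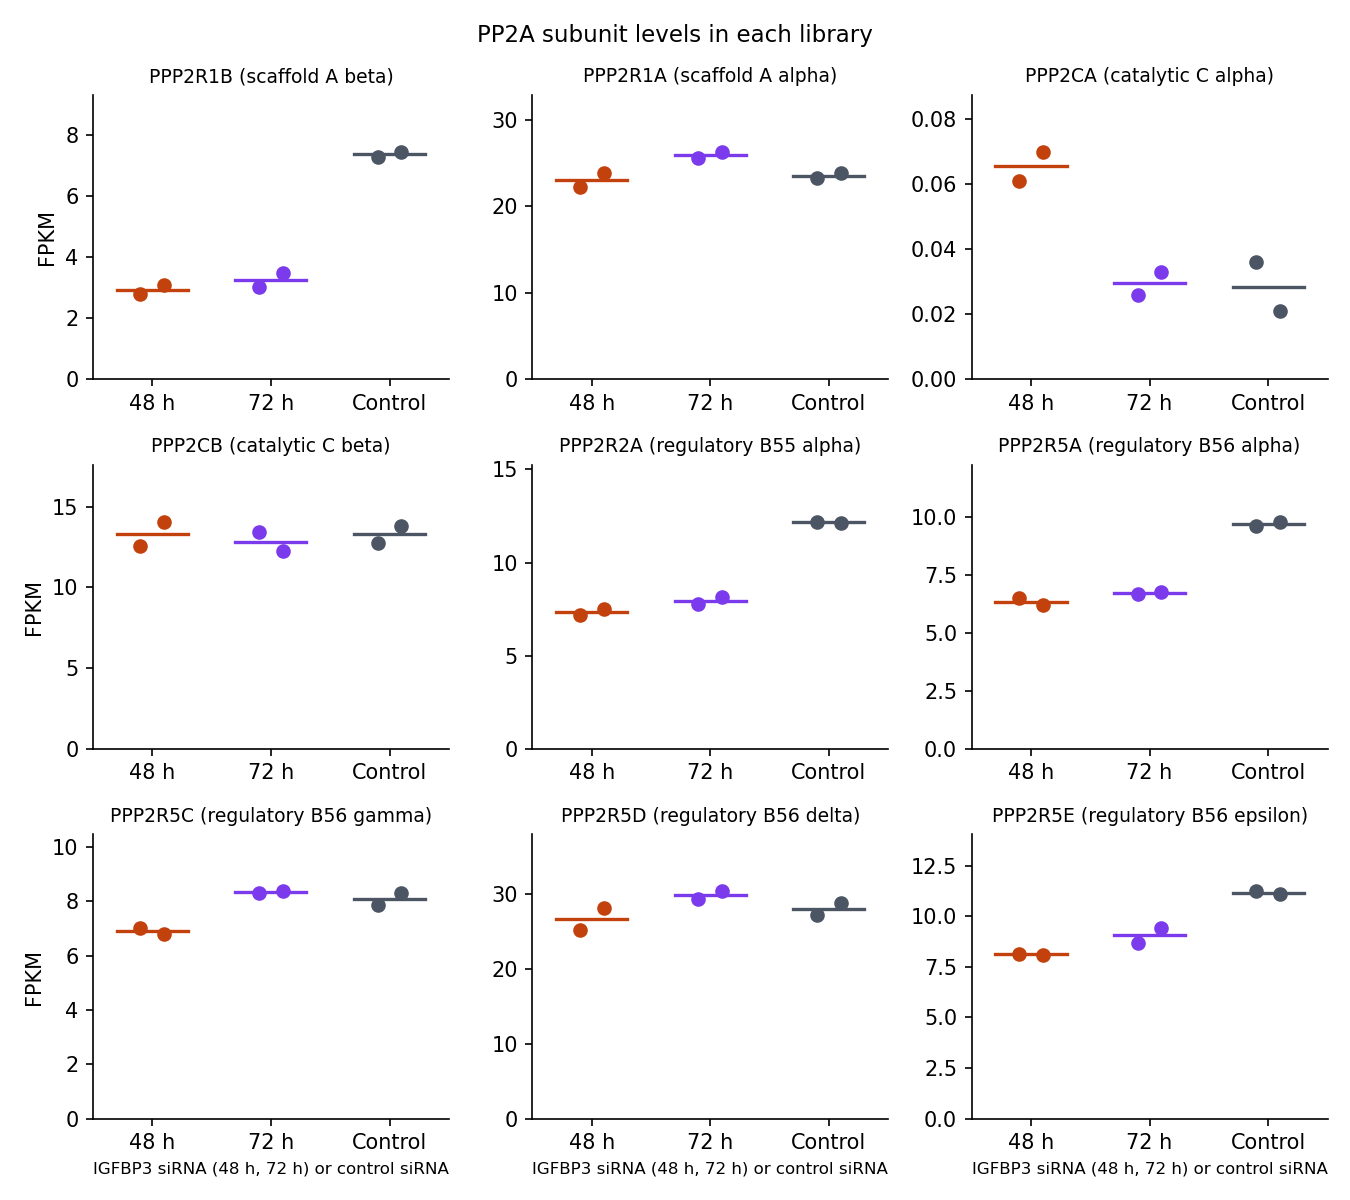
FPKM (y axis, from 0) of each of the 9 subunits at 48 h, at 72 h and in control libraries (x axis), with points for libraries and lines for group means; each panel has its own scale, and that of PPP2CA ends below 0.1 FPKM. PPP2R1B, PPP2R2A, PPP2R5A and PPP2R5E have all 4 knockdown libraries below both controls, whereas the libraries of PPP2CB overlap.

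By level, the order of the genes changed in the middle and not at the ends. PPP2R5D was the highest at both times and in control libraries (means of 26.7, 29.8 and 28.0 FPKM at 48 h, 72 h and control), followed by PPP2R1A and PPP2CB, and PPP2R1B was the lowest of the 8 that passed the filter. In control libraries PPP2R2A came next, at 12.2 ± 0.0361 FPKM, ahead of PPP2R5E at 11.2 ± 0.10 FPKM and PPP2R5A at 9.72 ± 0.135 FPKM (SD, n = 2). At 48 h, PPP2R5E at 8.12 ± 0.0269 FPKM stood ahead of PPP2R2A at 7.34 ± 0.233 FPKM (SD, n = 2). Within each group no 2 neighbours in the order overlapped in their libraries. The 5 B56 genes, PPP2R5B included, summed to 84.9% of control at 48 h and 94.3% at 72 h, and the 4 B55 genes to 76.4% and 77.1%. Within the B55 sum, PPP2R2A was at 60.3% and 65.4% of control, whereas PPP2R2D was at 114% and 103%. PPP2R2B and PPP2R2C were below control. Of these, PPP2R2B passed the filter only through its control libraries, and PPP2R2C did not pass it.

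Between 72 h and 48 h, no member passed the test with limma, beside 1.86% of tested genes called lower and 2.19% called higher at 72 h. PPP2R1A and PPP2R5C were higher at 72 h at an unadjusted p under 0.05, and no member was lower. PPP2R5C came nearest, with a log2 difference of 0.24 (standard error 0.07, limma adjusted p = 0.0881, adjusted p = 0.0455 with voom). In 6 of the 7 tested members without PPP2R1B both 72 h libraries lay above both 48 h libraries, and the reverse held in 0, beside 28.2% and 30.7% of all tested genes. PPP2R1B differed by 0.11 on the log2 scale and its libraries overlapped.

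The seed of the siRNA was compared with the members. The letters AGGGATT pair with positions 2 to 8 of the guide strand, taken as the antisense of the siRNA sequence in the study's methods. They occur in none of the 56 annotated coding transcripts of the 9 genes in GENCODE release 29, and in the longest annotated 3' UTR of 10.7% of 18834 genes. This says only that those letters are not in these transcripts.

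Of 7 other PP2A subunit genes, 6 were tested. PPP2R2B passed the filter only through its control libraries and so had to differ. That leaves 5, of which 1 fell and 0 rose at each time (also 0 higher at an unadjusted p under 0.05). Among all tested genes, 16.5% were called lower at 48 h and 9.51% at 72 h, and 8.38% and 3.56% higher. PPP2R2B, a B55 form known mainly from brain, stood at 0.192 and 0.141 FPKM at 48 h, 0.372 and 0.576 FPKM at 72 h, and 1.09 and 1.11 FPKM in control libraries. Its differences are given without a test. PPP2R3A, which encodes the PR72 and PR130 regulatory subunits, fell by 0.33 on the log2 scale at 48 h (limma adjusted p = 0.0355). PPP2R3C fell by 0.47 at 72 h (limma adjusted p = 0.0224), with 4.80 and 4.69 FPKM at 72 h and 6.40 and 7.58 FPKM in control libraries. The 48 h call of PPP2R3A was lost in 11 of 16 alternative fits and the 72 h call of PPP2R3C in 4 of 17.

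The striatin-type complex, in which striatins act as PP2A regulatory subunits and bring kinases to the phosphatase, had 14 tested genes. Of these, 5 fell at 48 h and 2 at 72 h, beside 16.5% and 9.51% of all tested genes called lower. None rose, beside 8.38% and 3.56% called higher. At an unadjusted p under 0.05, 6 were lower and 1 higher at each time. PDCD10, the adaptor that ties GCKIII kinases to striatins, stood at 10.7 and 9.46 FPKM at 48 h, 12.5 and 11.3 FPKM at 72 h, and 22.6 and 22.8 FPKM in control libraries. Its log2 change was -1.10 at 48 h (standard error 0.08, limma adjusted p = 0.001) and -0.88 at 72 h (standard error 0.08, limma adjusted p = 0.003). Both calls held in each of 17 alternative fits. STK24, 1 of the GCKIII kinases, stood at 16.5 and 17.2 FPKM at 48 h, 18.1 and 18.3 FPKM at 72 h, and 26.2 and 25.0 FPKM in control libraries, and fell by 0.58 at 48 h and 0.47 at 72 h (limma adjusted p = 0.003 and 0.0089). MOB4, a striatin-bound protein, fell by 0.44 at 48 h (limma adjusted p = 0.0092) and the adaptor CTTNBP2NL by 0.31 (limma adjusted p = 0.0261), and neither passed at 72 h. The 72 h call of STK24 was lost without either 72 h library, and that of CTTNBP2NL at 48 h without any 1 of the 4 libraries compared.

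Inhibitors and modifiers of PP2A had 14 tested genes, of which 3 fell at 48 h, 1 fell at 72 h and 1 rose at each time. Beside these counts, 16.5% of all tested genes were called lower at 48 h and 9.51% at 72 h, and 8.38% and 3.56% higher. The 1 that rose was BOD1, an inhibitor of PP2A with B56 at kinetochores. It stood at 10.7 and 10.9 FPKM at 48 h, 8.60 and 7.38 FPKM at 72 h, and 6.24 and 5.79 FPKM in control libraries, with log2 changes of 0.75 (limma adjusted p = 0.003) and 0.36 (limma adjusted p = 0.0428). ARPP19, an inhibitor of PP2A with B55 once phosphorylated by the kinase MASTL, fell by 0.46 at 48 h and by 0.37 at 72 h (limma adjusted p = 0.0076 and 0.025). Its relative ENSA fell by 0.31 at 48 h, as did SGO1, which brings PP2A with B56 to centromeres (limma adjusted p = 0.0213 and 0.0219). The 48 h call of BOD1 held in each of 17 alternative fits and its 72 h call was lost in 10 of them. The calls of ENSA and SGO1 were lost without any 1 of the 4 libraries compared, and ARPP19 lost its 48 h call without replicate 2 of the 48 h group (limma adjusted p = 0.0524) and its 72 h call in 5 of 17 fits.

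Among the PP2A-like phosphatases PP4 and PP6, 3 of 11 tested genes fell at 48 h and 1 at 72 h, while 0 rose (1 at each time with an unadjusted p under 0.05). PPP6R3, a regulatory subunit of PP6, fell by 0.48 at 48 h and 0.29 at 72 h (limma adjusted p = 0.005 and 0.0382). The PP6 scaffold ANKRD28 and the PP4 subunit PPP4R1 fell by 0.26 and 0.27 at 48 h (limma adjusted p = 0.0272 and 0.0347). Of the other serine/threonine phosphatase catalytic genes, 2 of 7 tested fell and 1 rose at 48 h, and 1 fell and 1 rose at 72 h. Beside both lists, 16.5% of all tested genes were called lower at 48 h and 9.51% at 72 h, and 8.38% and 3.56% higher. PPP1CC, a catalytic subunit of PP1, stood at 31.2 and 29.6 FPKM at 48 h, 31.7 and 34.0 FPKM at 72 h, and 53.2 and 58.0 FPKM in control libraries, with log2 changes of -0.85 and -0.74 (limma adjusted p = 0.0018 and 0.0044). PPP3CA, the alpha catalytic subunit of calcineurin, fell by 0.67 at 48 h (limma adjusted p = 0.0059), and PPP5C rose by 0.34 at 48 h and 0.31 at 72 h (limma adjusted p = 0.0153 and 0.034). The calls of PPP1CC held in each of 17 alternative fits, whereas the 72 h calls of PPP6R3 and PPP5C were lost in 11 and 9 of them, the 48 h call of PPP5C in 3 (without replicate 2 of the control and without either 48 h library), and those of ANKRD28 and PPP4R1 without any 1 of the 4 libraries compared.

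Over these 5 lists together, PPP2R2B left out, 14 of 51 tested genes were lower and 2 higher at 48 h, beside 16.5% and 8.38% of all tested genes, and 6 were lower and 2 higher at 72 h, beside 9.51% and 3.56%. Their median log2 change was -0.08 at 48 h and -0.09 at 72 h, beside -0.04 and -0.05 over all tested genes. The alternative fits were counted with PPP2R2B, that is, from 15 lower at 48 h and 7 at 72 h. Its place below control was fixed by the filter and is no result. The count of 15 was 8 without any 1 of the 4 libraries compared. At 72 h, leaving out any 1 of the 6 libraries gave 2 to 5 lower and 0 higher.

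**Figure D4:**
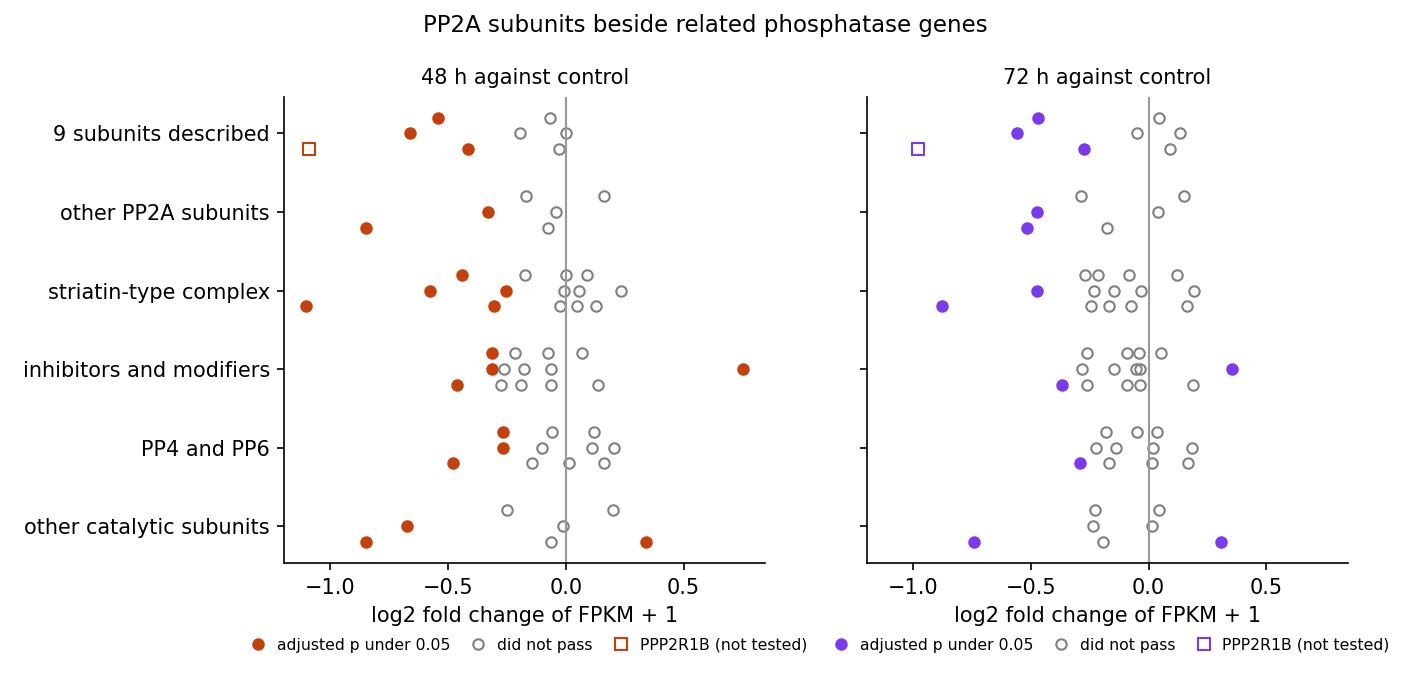
Log2 fold change of FPKM + 1 (x axis) at 48 h (left) and at 72 h (right) against control for tested genes of 6 lists (y axis). Filled points have an adjusted p under 0.05, and open points did not pass. PPP2R2B, at -0.85 at 48 h and -0.51 at 72 h, passed the filter only through its control libraries, so its fill is no result. The open square is PPP2R1B, which was not tested. PDCD10 at -1.10 and BOD1 at 0.75 are the outermost filled points at 48 h.

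The 5 tested genes whose profile over the 6 libraries was nearest to that of PPP2R1B, by the Euclidean distance of centred log2(FPKM + 1) values, were TDG, SERPINA1, DLG5, FAM3C and C5orf15, at distances of 0.0679 to 0.153. TDG, a DNA glycosylase that removes thymine from mismatches, stood at 7.39 and 7.87 FPKM at 48 h, 8.10 and 8.63 FPKM at 72 h, and 17.7 and 17.3 FPKM in control libraries. SERPINA1, the secreted protease inhibitor alpha-1-antitrypsin, stood at 9.56 and 9.59 FPKM at 48 h, 10.5 and 11.2 FPKM at 72 h, and 21.1 and 20.9 FPKM in control libraries. Among the members, PPP2R2A was the nearest, at a distance of 0.498 and rank 197 of 11213 genes, and PPP2R1A the farthest of those tested, at 1.26 and rank 6681.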

How the data were processed

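Total RNA was extracted with a column kit and sequenced on a DNBSEQ instrument, and the reads were aligned with HISAT2 2.0.1. The submitters' processing notes also name HTSeq 0.6.1, DESeq2 and GRCh38, and the annotation release and strand handling are not given in the sources used here. The authors deposited FPKM for 66351 gene models, and 6831 without a name were left out. Low FPKM values were whole multiples of a step, within 0.1 read, which gave the assigned reads.

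A pseudocount of 1 was added and log2 values of the 11214 models with at least 1 FPKM in at least 2 libraries entered a model with 1 mean for each group over 6 libraries and a variance trend (limma 3.58.1, run in R 4.3.3). A Benjamini-Hochberg adjusted p under 0.05 was called. With 2 libraries against 2 an exact permutation test cannot go below 0.333. The members and lists were chosen with earlier results of these data known. Named are all members and, in each list, up to 4 called genes with the smallest p. Python 3.11.15 handled the tables. Alternatives were other pseudocounts (0.1 and 5), filters, quantile normalization, TPM, each pair of groups fitted alone, a replicate block, a variance without trend, voom on recovered reads and leaving out each library.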

Additional observations from a re-analysis of the deposited data

How the results depend on the processing

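No called value changed direction. The 48 h counts of the 7 members without PPP2R1B kept within 1.5 times of the main count in all alternatives. At 72 h, 3 of these 7 were lower. Fewer were lower with any library left out, and the fewest without replicate 1 of the 72 h group. The 72 h call of PPP2R5E was also lost in other fits. These were the compared groups alone, no filter, quantile normalization, both replicate blocks and a variance without a trend. For 72 h against 48 h, voom gave 1 member higher in place of 0. Of the other phosphatase genes, PPP2R2B included, 15 were lower at 48 h, 9 with quantile normalization and 8 to 13 with libraries left out, and 2 were higher, 4 with quantile normalization and 1 to 2 with libraries left out. At 72 h, 7 were lower, 3 with no filter, 11 with voom and 2 to 5 with libraries left out, and 2 were higher, 1 with a variance without a trend and 0 with no filter, with the compared groups alone, with the crossed block and with any library left out. For 72 h against 48 h, 1 was lower with a minimum of 5 FPKM and 1 with voom, and 1 and 2 were higher. The cause was not tested. Quantile normalization, which moves the median of all genes, gave 1419 genes lower and 1375 higher at 48 h in place of 1845 and 940, and 675 and 552 at 72 h in place of 1066 and 399.

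The log2 change of PPP2R1B ran from -1.33 with voom to -0.64 with a pseudocount of 5 at 48 h, and from -1.18 to -0.58 at 72 h. From reads not divided by length its share of the scaffold was 10.3% at 48 h, 10.2% at 72 h and 22.0% in control libraries, and that of PPP2CB in the catalytic pair 99.4% and 99.7% at 48 h and 72 h.

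The replicate numbers were not taken as pairs, since the correlations of replicate differences were -0.0032 for 48 h and control, 0.159 for 72 h and control and -0.123 for 72 h and 48 h. With the number as a block, 3 of the 7 members without PPP2R1B were lower at 48 h and 2 at 72 h, and 1669 genes were lower and 848 higher at 48 h. With the 72 h numbers crossed, a fit added after the data had been seen, 1699 genes were lower and 872 higher at 48 h, and 820 and 290 at 72 h. Groups of 2 libraries and 328 to 962 reads for PPP2R1B limit the precision, and PPP2CA at 2 to 8 reads gives none.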
